A study of Mus musculus with 2 samples.

Results

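Retinoid transport and metabolism was examined through 9 genes in epididymal white adipose tissue, a visceral fat depot that lies along the epididymis. The members were Rbp4, Rbp7, Ttr, Stra6, Crabp2, Rdh10, Dhrs3, Aldh1a1 and Aldh1a2, and every probe set whose single annotated symbol was one of these names was taken. This gave 13 probe sets of the 45037 on the array, and 9 genes of 18193. One sample came from a male C57BL/6 mouse kept on a high-fat diet over 7 weeks, and the other from a male C57BL/6 mouse kept on normal chow. Per the labels, the dietary challenge began at 9 weeks of age, and no altered allele or drug was named for either mouse. Each diet had 1 Affymetrix array, so no test of the diet was possible, no spread between animals is known, and all comparisons are between these 2 samples alone.

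Vitamin A reaches tissues as retinol bound in the blood to retinol-binding protein, the product of Rbp4, which travels in a complex with transthyretin, the product of Ttr. Stra6 is a cell surface receptor for retinol-binding protein, and Rbp7 and Crabp2 encode small proteins that hold retinol and retinoic acid inside cells. Rdh10 oxidises retinol to retinal, Dhrs3 reduces retinal back to retinol, and Aldh1a1 and Aldh1a2 oxidise retinal to retinoic acid, the ligand of the nuclear receptors RAR. Fat stores retinyl esters and secretes retinol-binding protein, and in mice Rbp4 is often described as an adipokine.

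Shown here are 2 promoters, those of the retinol-binding members whose intensities were higher on the high-fat diet. They are the 250 bases before an annotated start in RefSeq, build GRCm38.p6, both on the minus strand. They lie at chr19:38124812-38125061 for Rbp4 and chr4:149454969-149455218 for Rbp7. Capitals mark the TATA motif TATAAA. Rbp4 has another annotated start, and the one shown was picked because its window holds TATAAA.
Rbp4: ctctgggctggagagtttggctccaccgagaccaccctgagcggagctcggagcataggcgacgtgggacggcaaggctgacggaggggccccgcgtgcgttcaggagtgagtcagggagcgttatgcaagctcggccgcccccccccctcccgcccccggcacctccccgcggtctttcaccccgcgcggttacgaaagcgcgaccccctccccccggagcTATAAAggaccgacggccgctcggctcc
Rbp7: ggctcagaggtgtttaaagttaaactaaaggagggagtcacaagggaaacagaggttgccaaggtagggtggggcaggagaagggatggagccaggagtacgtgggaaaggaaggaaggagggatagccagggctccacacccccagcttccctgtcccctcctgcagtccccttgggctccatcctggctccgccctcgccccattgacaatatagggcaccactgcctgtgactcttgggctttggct

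The Rbp4 stretch had a G and C content of 70.8% with 28 CpG dinucleotides, and its TATAAA began 28 bases before the start. The Rbp7 stretch had 58.4% and 3 CpG dinucleotides, with no TATAAA. Of the 9 members, 6 matched the RefSeq promoter table, with 13 windows of 300 bases that run from 250 bases before to 50 after a start. These windows were searched on both strands for the core sites AGGTCA and AGTTCA as direct repeats with 1, 2 or 5 bases between them, the spacings that RAR and RXR dimers are known to bind. None of the 13 member windows (0) held such a repeat, as against 0.161% of all 32851 windows in the table. So rare a repeat would seldom fall in 13 windows, so this 0 says nothing of the members. A single core site lay in 1 member window, of Stra6, as against 27.7% of all windows. TATAAA on the sense strand, a motif added after the windows were seen, was in 1 member window, that of Rbp4 whose bases are printed here, and in 8.32% of all windows. G and C content ran from 40.7% in the other Rbp4 window to 78.0% in that of Aldh1a2, around a median of 52.7% over all windows.

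The deposited values were linear intensities, 1 per probe set and array. The 40th percentile of each array, 27.9 on the high-fat diet and 28.6 on normal chow, was used as a floor for weak signal. Probe sets at or above it on either array or both were treated as measured. Values under the floor were raised to it before log2 was taken, so a difference that rests on such a value is a bound, written as at least N-fold. The direction of a bound is fixed by which array passed the floor. By this rule 14066 genes were measured. Differences are log2 of high-fat diet minus normal chow. Their pooled SD between probe sets of the same gene was 0.32, over 5196 genes, which covers probe error and nothing of the difference between animals. All 9 mature adipocyte markers on the array lay above the floor on both arrays, with Adipoq at 8718.4 on the high-fat diet and 8372.1 on normal chow. Of 10 epididymis markers on the array, 5 lay below the floor in both samples, and the largest differences of the rest were in Lcn8 and Adam7. Lcn8, a lipocalin, was 1.67-fold lower at 32.9 on the high-fat diet and 55.1 on normal chow. Adam7 was at least 1.34-fold higher at 38.4 on the high-fat diet and 13.9 on normal chow. Ces5a, of the same list, lay well above the floor, at 706 on the high-fat diet and 637.1 on normal chow. Its log2 difference was 0.15, and its other probe sets differed by 0.01 and -0.87.

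The carriers of retinol divided by gene. Rbp4 and Rbp7 were higher on the high-fat diet, Ttr was lower, and Stra6 was below the floor in both samples. Of the enzymes, Aldh1a1 was slightly higher, and Rdh10 was lower, past the probe error in 1 of its 2 probe sets. Dhrs3, on the higher side, and Aldh1a2, on the lower side, both lay within the probe error. In total 7 of the 9 members were measured, 4 of them higher and 3 lower, with a median difference of 0.23. Over all measured genes 46.8% were higher and 52.5% lower, with a median of -0.02. One member, Rbp7 (1 of 7), was 1.5-fold or more higher, as were 5.82% of all measured genes. One member, Ttr, was 1.5-fold or more lower, as were 6.40% of all measured genes. Ttr was also the 1 member at 2-fold or more lower, as were 1.35% of genes, and 0 members were 2-fold or more higher, as were 1.17% of genes. These shares stand for 190 genes lower and 164 higher, which became 258 lower and 118 higher after centring on reference genes. These counts are of single genes and say nothing of the 7 as a group.

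**Figure D1:**
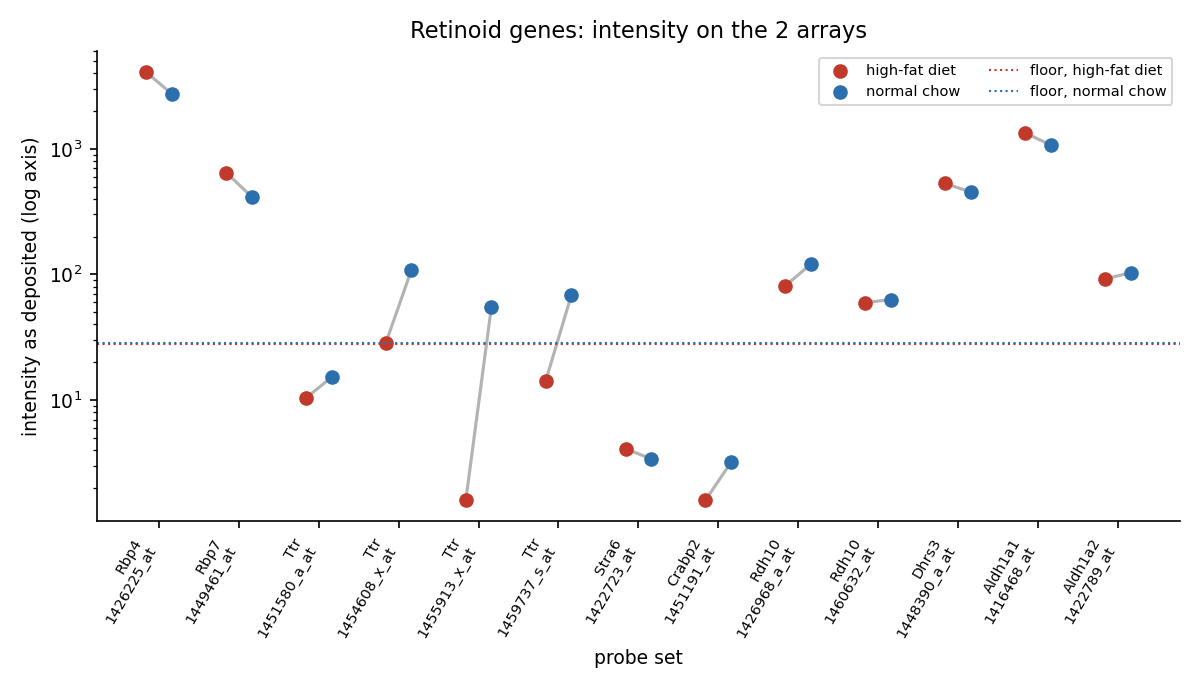
Intensity as deposited (log axis) of each of the 13 member probe sets on the high-fat diet array (red, left) and the normal chow array (blue, right), with dotted lines at the floors of 27.9 and 28.6. Rbp4, Rbp7, Dhrs3 and Aldh1a1 are higher on the high-fat diet, all 4 Ttr probe sets are lower, and Stra6 and Crabp2 lie far below the floor. Heights of different probe sets cannot be compared with each other.

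Rbp4, the blood carrier of retinol, had an intensity of 4070.9 on the high-fat diet and 2731.6 on normal chow in its only probe set. It was 1.49-fold higher, a log2 difference of 0.58, or 1.81 times the pooled SD of probe sets. Of all measured genes 6.02% were at least as far higher. In tissue samples of this kind, a change in the share of a cell type and a change in RNA per cell cannot be told apart. The mature adipocyte markers, the cells known to make most of the Rbp4 in fat, had a median of 0.06, with 6 of 9 higher. Their summed intensity was 47041.7 on the high-fat diet and 44240.5 on normal chow. Lep, the gene of leptin and a member of that marker list, was 1.55-fold higher at 3099.8 on the high-fat diet, against 2001.2 on normal chow, while Slc2a4, the insulin-regulated glucose transporter, was 1.42-fold lower at 634 on the high-fat diet, against 898.3 on normal chow. These 2 had the largest differences of the list.

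Rbp7, a cellular retinol-binding protein known in mice from fat cells and from the endothelium of fat, had an intensity of 647 on the high-fat diet and 414.6 on normal chow. It was 1.56-fold higher, a log2 difference of 0.64, the highest of the members, and it too had a single probe set. Of all measured genes 4.66% were at least as far higher. The log2 differences of Rbp7 and Rbp4 lay closer to each other than the pooled SD of probe sets. Endothelial markers had a median of 0.04, with 6 of 11 higher and 5 lower and none at 0, and their summed intensity was 3580.1 on the high-fat diet and 3583.1 on normal chow. Their largest differences were in Flt1, a receptor of vascular endothelial growth factor, 1.51-fold lower at 105.1 on the high-fat diet and 158.2 on normal chow, and in Vwf, the gene of von Willebrand factor, 1.49-fold lower at 228.6 on the high-fat diet and 340.2 on normal chow.

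Ttr, the partner of retinol-binding protein in the blood and a carrier of thyroxine, was the member with the largest difference. Its 4 probe sets were all dimmer on the high-fat diet. The brightest, 1454608_x_at, had 28.6 on the high-fat diet and 108.7 on normal chow, 3.80-fold lower, with the first value barely above the floor. Probe set 1459737_s_at had 14.2 on the high-fat diet and 68.1 on normal chow, at least 2.44-fold lower. Probe set 1455913_x_at had 1.6 on the high-fat diet and 55 on normal chow, at least 1.97-fold lower. The last, 1451580_a_at, lay below the floor on both arrays, at 10.4 on the high-fat diet and 15.2 on normal chow. Of the 10 member probe sets that were measured, 2 were 2-fold or more lower, both of Ttr, as were 1.35% of all measured probe sets with 1 symbol, and 0 were 2-fold or more higher, as were 1.23%. Probe sets 1459737_s_at and 1455913_x_at counted as measured solely through their normal chow values, so their direction was fixed by the floor and adds nothing to that of the brightest one. Of all measured genes 0.0498% were at least as far lower as the brightest one. Genes with a high-fat diet value under the floor enter this share as bounds, so it can be too small. None of the 4 is a plain probe set: in the maker's naming, _x marks probes that resemble other sequences, _s probes shared between several transcripts, and _a probes shared by transcripts of 1 gene. The probe sets of 1 gene share their RNA sample and are not replicates of the diet.

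Ttr is known to be expressed mainly in liver and choroid plexus, and the values of the liver marker list were as follows. Of 13 liver markers on the array 10 were measured, 8 of them lower and 2 higher, with a median of -0.53, and their summed intensity was 422.5 on the high-fat diet and 874.4 on normal chow. Among the lower ones, Apoa1, Apoa2, Fga and Ahsg counted as measured solely through their normal chow values, so their direction was fixed by the floor. The median and the summed intensity rest in part on these genes. In the sum their high-fat diet values were used as deposited, without being raised to the floor. Apoa2, an apolipoprotein of high-density lipoprotein, had 13.1 on the high-fat diet and 214.2 on normal chow, at least 7.68-fold lower. Apoa1, the main apolipoprotein of the same particle, had 18.3 on the high-fat diet and 83.5 on normal chow, at least 2.99-fold lower. Alb, the gene of serum albumin, had 121.5 on the high-fat diet and 141.5 on normal chow, 1.16-fold lower and within the pooled SD of probe sets. Apoh, a plasma glycoprotein, had 49.2 on the high-fat diet and 137.4 on normal chow, 2.79-fold lower, while its other probe set differed by 0.15. The fibrinogen chains Fgb, at 1.1 on the high-fat diet and 3 on normal chow, and Fgg, at 12.1 on the high-fat diet and 13.6 on normal chow, were below the floor on both arrays, as was Ambp at 8.8 on the high-fat diet and 20.4 on normal chow. Cps1, a urea cycle enzyme, differed in the opposite direction and was 1.41-fold higher, at 53.1 on the high-fat diet and 37.7 on normal chow, as was Tat, an enzyme of tyrosine breakdown, 1.20-fold higher at 40 on the high-fat diet and 33.2 on normal chow. The part of liver transcripts in the Ttr result was not tested.

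**Figure D2:**
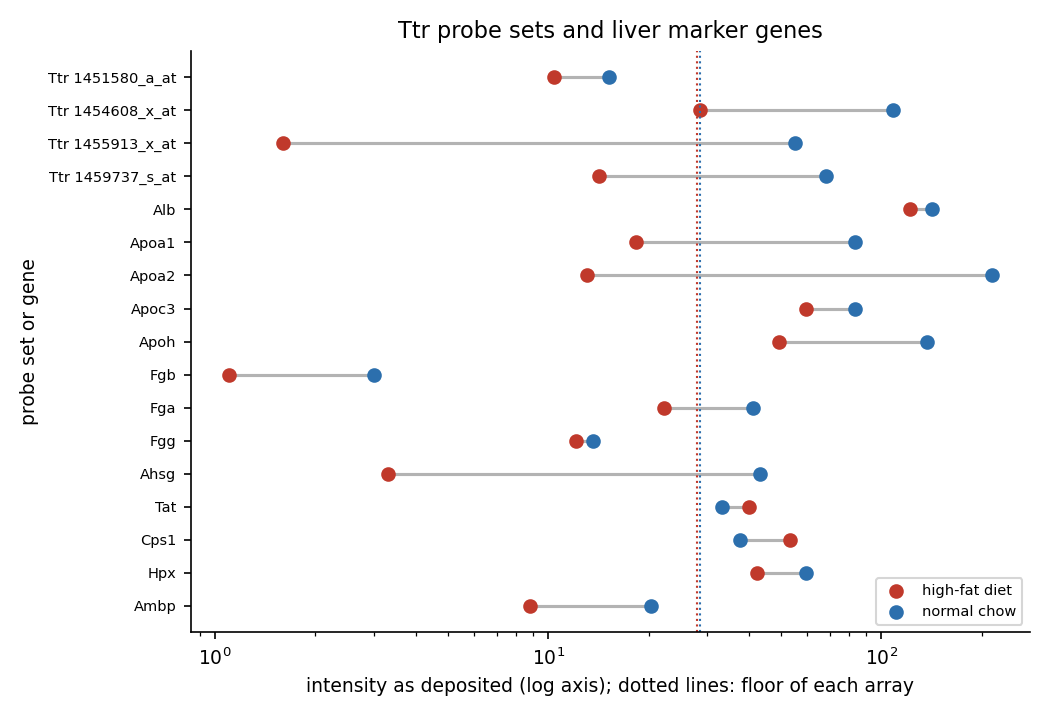
Intensity as deposited (log axis) of the 4 Ttr probe sets and of 13 liver marker genes on the high-fat diet array (red) and the normal chow array (blue), with dotted lines at the floors of 27.9 and 28.6. Each gene is drawn at its brightest probe set. Apoa2 and Apoa1 lie with Ttr at a dim value on the high-fat diet, Alb differs little, and Tat and Cps1 are brighter on the high-fat diet.

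Stra6, the receptor that takes retinol from retinol-binding protein, had 4.1 on the high-fat diet and 3.4 on normal chow. Crabp2, which carries retinoic acid to its receptor in the nucleus, had 1.6 on the high-fat diet and 3.2 on normal chow. Both have 1 probe set each and lie below the floor on both arrays, so no fold is given, and their transcripts were not detectable above weak signal here. A dim probe set can come from a low transcript level or from probes that bind poorly, which were not told apart. Stra6l, a related liver receptor for retinol-binding protein, was above the floor in the normal chow sample alone, at 21.2 on the high-fat diet and 34.7 on normal chow, at least 1.24-fold lower.

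Rdh10, the first and rate-limiting enzyme of retinoic acid synthesis in mouse embryos, had 2 probe sets that differed by unequal amounts. Probe set 1426968_a_at had 81.2 on the high-fat diet and 121 on normal chow, 1.49-fold lower, a log2 difference of -0.58. Probe set 1460632_at had 59.7 on the high-fat diet and 63 on normal chow, a log2 difference of -0.08, well within the pooled SD of 0.32. The size of the Rdh10 difference therefore depends on the probe set, although both were dimmer on the high-fat diet. Of all measured genes 6.68% were at least as far lower as the brighter probe set.

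Dhrs3, which works against Rdh10 by turning retinal back into retinol and is itself induced by retinoic acid, had 529.7 on the high-fat diet and 452.2 on normal chow. Its log2 difference of 0.23 was 0.720 times the pooled SD of probe sets, and 22.6% of measured genes were at least as far higher. Dhrs3 and the smaller of the Rdh10 differences were thus both inside the probe error.

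Aldh1a1, a retinal dehydrogenase that in mice is the main such enzyme of white fat, had 1342 on the high-fat diet and 1068.7 on normal chow. It was 1.26-fold higher, a log2 difference of 0.33, which is 1.04 times the pooled SD, and 15.4% of measured genes were at least as far higher. Under quantile normalization, lowess centring and centring on reference genes its log2 difference was 0.23 to 0.26, inside the pooled SD. Aldh1a7, a close mouse paralogue of Aldh1a1 outside the 9 members, had 1615.3 on the high-fat diet and 958.3 on normal chow, 1.69-fold higher. Whether the probes of these similar genes tell their transcripts apart was not tested. Aldh1a2, the retinal dehydrogenase that acts in the mouse embryo and in mesothelium, had 92.1 on the high-fat diet and 103 on normal chow, a log2 difference of -0.16 and within the pooled SD. Mesothelial markers had a median of -0.66, with 9 of 11 lower and 2 higher, none of them below the floor on both arrays, and a summed intensity of 1451.2 on the high-fat diet and 1994.4 on normal chow. Their largest differences were in Bnc1, a zinc finger factor, 2.48-fold lower at 27.9 on the high-fat diet, which is the floor itself, and 69.1 on normal chow, and in Krt19, a keratin, 1.99-fold lower at 83.7 on the high-fat diet and 166.2 on normal chow. The log2 difference of Bnc1, -1.31, was -0.23 with the floor at the 60th percentile, and the median of the list was then -0.25. Progenitor and fibroblast markers had a median of 0.15 with 7 of 10 higher and 3 lower. Mfap5, a microfibril protein, was 1.89-fold higher, and Col1a1, a collagen chain, was 1.67-fold higher with a log2 difference of 0.40 in its other probe set. Pdgfra, a growth factor receptor of progenitors, was 1.58-fold lower at 182.7 on the high-fat diet and 289.3 on normal chow, with 0.19 in its other measured probe set, and Dcn, the gene of decorin, differed by -0.31. Macrophage markers had a median of -0.06 with 4 of 10 higher, and their largest differences were in Cd14, 1.56-fold lower, and Mertk, 1.49-fold lower. The part of these cells in the Aldh1a1 and Aldh1a2 values was not tested.

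**Figure D3:**
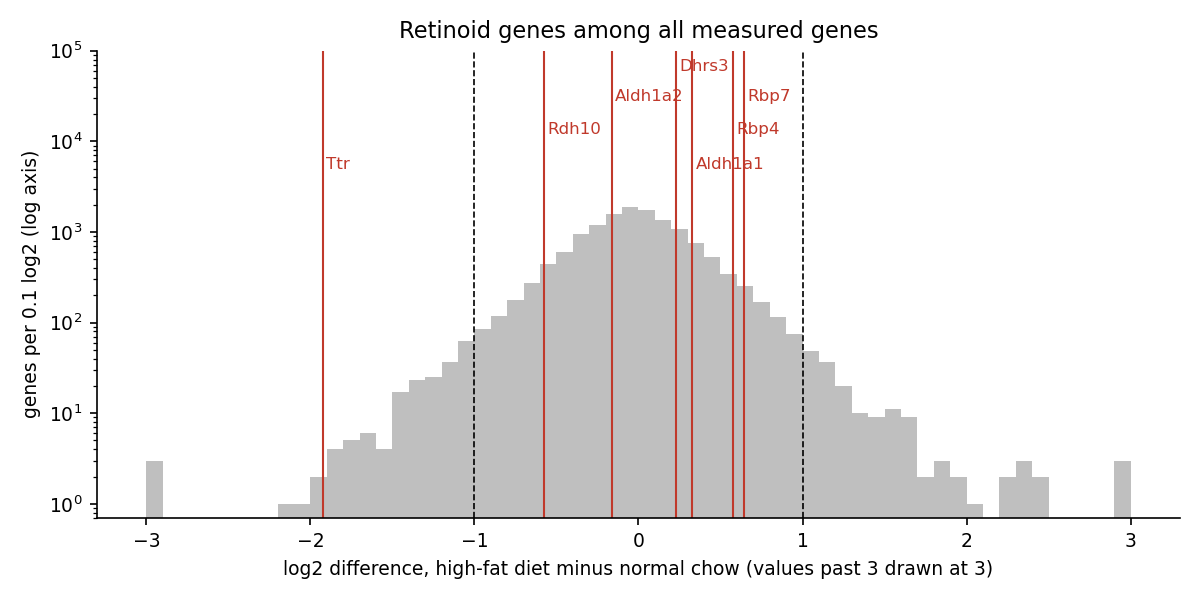
Histogram of the log2 difference, high-fat diet minus normal chow, over the 14066 measured genes (log count axis), with red lines at the 7 measured members and dashed lines at 2-fold. Ttr at -1.93 lies past the dashed line, and the other 6 members lie between -0.58 and 0.64.

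Around the members, 72 other retinoid genes were listed by role, 65 had a probe set of their own on the array and 54 were measured. Of these 22 were higher and 31 lower on the high-fat diet, with a median of -0.09, and after centring on reference genes 15 were higher and 39 lower. At 1.5-fold or more 5 were higher and 8 lower, beside 5.82% and 6.40% of all measured genes. At 2-fold or more 1 was higher, Fabp5, and 5 were lower, beside 1.17% and 1.35% of all measured genes. Of the lower ones, Bco2, Cyp26b1 and Rxrg counted as measured solely through their normal chow values, so their direction was fixed by the floor. These counts say nothing of the listed genes as a group. These counts depend on the floor and the scale: with the floor at the 60th percentile 1 of 43 measured genes, Bhlhe40, was 2-fold or more lower, and under quantile normalization, lowess centring and centring on reference genes 0 were 2-fold or more higher. Bco1, the enzyme that cleaves carotene into retinal, had no direction, at 28 on the high-fat diet and 10.8 on normal chow, since the first value lies under the normal chow floor.

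Among other proteins of uptake and binding, 5 of 8 on the array were measured, 4 higher and 1 lower. Fabp5, a fatty acid carrier that can also bring retinoic acid to the receptor Ppard, had 3792.3 on the high-fat diet and 1812.5 on normal chow, 2.09-fold higher in the brighter of 2 probe sets that differed in the same direction. Its log2 difference of 1.07 was 0.96 to 0.99 under the 3 other scales, just under 2-fold. It is also expressed by macrophages. Lrp2, the megalin receptor, was 1.53-fold higher at 135.1 on the high-fat diet and 88.1 on normal chow, but its 3 probe sets ran from -0.76 to 0.62 in log2 difference, so it has no direction that holds across them.

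Among other enzymes that convert retinol, retinal and carotenoids, 14 of 19 were measured, 6 higher and 7 lower with a median of -0.02. Bco2, which cleaves carotenoids off centre, had 14.3 on the high-fat diet and 77.3 on normal chow, at least 2.77-fold lower, a bound of -1.47 in log2 that shrank to -0.39 with the floor at the 60th percentile. Rdh13, a mitochondrial dehydrogenase, had 53.2 on the high-fat diet and 84.6 on normal chow, 1.59-fold lower. Adh1, an alcohol dehydrogenase that clears excess retinol, had 1557.8 on the high-fat diet and 1546.7 on normal chow, a log2 difference of 0.01.

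Among enzymes that form and split retinyl esters, 7 of 8 were measured, 3 higher and 4 lower with a median of -0.09. Lrat, the main retinol esterifying enzyme of liver, was below the floor in its 2 probe sets. One had 10.7 on the high-fat diet and 13.4 on normal chow, and the other 21.5 on the high-fat diet and 12.2 on normal chow. Lipe, the hormone-sensitive lipase that also splits retinyl esters in fat, had 3796.5 on the high-fat diet and 3376.1 on normal chow, a log2 difference of 0.17. Ces1f, a carboxylesterase, had 325 on the high-fat diet and 630.7 on normal chow, 1.94-fold lower.

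Of the CYP26 enzymes, which break down retinoic acid, Cyp26b1 had 23.5 on the high-fat diet and 102.8 on normal chow, at least 3.68-fold lower, or -1.88 in log2, a bound that shrank to -0.81 with the floor at the 60th percentile. Cyp26a1 stayed under the floor in both samples, at 16.4 on the high-fat diet and 8.6 on normal chow, and Cyp26c1 is named only. Of the 6 measured genes of synthesis and breakdown outside the members, 2 were higher and 4 lower.

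All 7 receptor genes were measured, 3 higher and 4 lower with a median of -0.17. Rarb, a retinoic acid receptor that is itself a target of retinoic acid, had 55.2 on the high-fat diet and 26.4 on normal chow, at least 1.93-fold higher. It counted as measured solely through its high-fat diet value, so its direction was fixed by the floor. This bound, 0.95 in log2, was 0.75 with no floor, and Rarb had no value with the floor at the 60th percentile. Rxrg, a partner receptor, had 14.3 on the high-fat diet and 64.1 on normal chow, at least 2.30-fold lower, or -1.20 in log2, a bound that shrank to -0.12 with the floor at the 60th percentile. Rara was above the floor in the high-fat diet sample alone, at 34.3 on the high-fat diet and 22.8 on normal chow, at least 1.20-fold higher. Rxra, the partner of most nuclear receptors in fat, had 440.2 on the high-fat diet and 360.5 on normal chow, a log2 difference of 0.29 that was -0.23 in its other measured probe set. Rarg differed by -0.17 in its brighter probe set and by 0.27 in the other. Rxrb, at 107.2 on the high-fat diet and 128.6 on normal chow, and Ppard, at 64.1 on the high-fat diet and 76.9 on normal chow, each differed by -0.26.

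**Figure D4:**
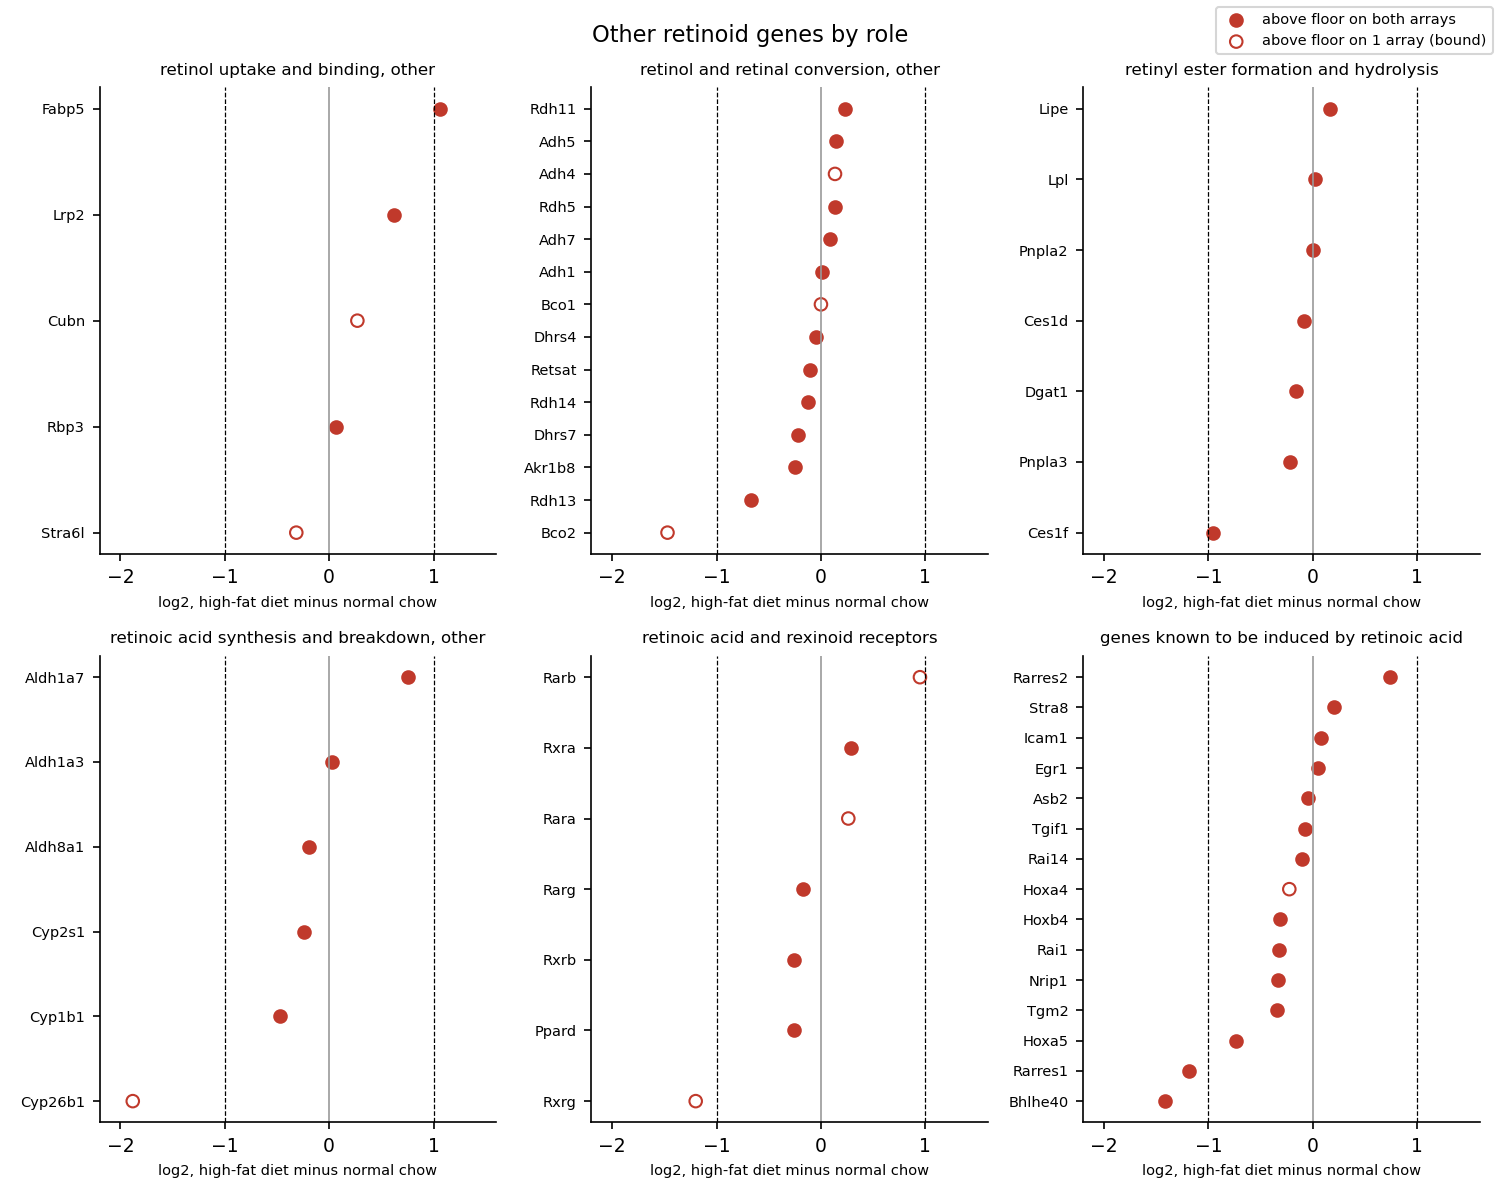
Log2 difference, high-fat diet minus normal chow, of the measured retinoid genes outside the 9 members, in 6 panels by role, with dashed lines at 2-fold. Filled points were above the floor on both arrays, and open points are bounds from genes above it on 1 array. Fabp5 lies above 2-fold, and Bco2, Cyp26b1, Rxrg, Rarres1 and Bhlhe40 lie at 2-fold or more lower, in the main setting.

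Genes known from other systems to be induced by retinoic acid did not share a direction. Of 16 on the array 15 were measured, 4 higher and 11 lower with a median of -0.22. Bhlhe40, a repressor first found in mouse cells treated with retinoic acid, had 161 on the high-fat diet and 428.4 on normal chow, 2.66-fold lower. Rarres1, known from human skin as a retinoid-responsive gene, had 39.8 on the high-fat diet and 90.3 on normal chow, 2.27-fold lower, a log2 difference of -1.18 that was -0.62 with the floor at the 60th percentile and -0.93 with no floor. Hoxa5, a homeobox factor, had 145 on the high-fat diet and 240.7 on normal chow, 1.66-fold lower. Rarres2, which encodes the adipokine chemerin, went the other way at 2045.3 on the high-fat diet and 1223.9 on normal chow, 1.67-fold higher, with a difference of 0.84 in its other bright probe set and -0.12 in a weak one. Each of these genes also answers to other signals, so the list gives no reading of retinoic acid itself.

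Across the 9 alternative settings of processing, each measured member kept the sign of its difference in every setting that could give it a value. For Rbp4, Rbp7, Dhrs3, Aldh1a1 and Aldh1a2, each with 1 probe set, the changes of floor and probe set rule could not reverse that sign. The same holds for Ttr and Rdh10, whose probe sets were all dimmer on the high-fat diet. Rbp7 stayed between 0.56 and 0.64 and Rbp4 between 0.47 and 0.58. Ttr ran from -2.01 to -0.89 and fell short of 2-fold where the floor was set at the 60th percentile (-0.89) or its least different probe set was used (-0.98, a bound). Rdh10 ran from -0.65 to -0.08, and Aldh1a1 from 0.23 to 0.33.

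**Figure D5:**
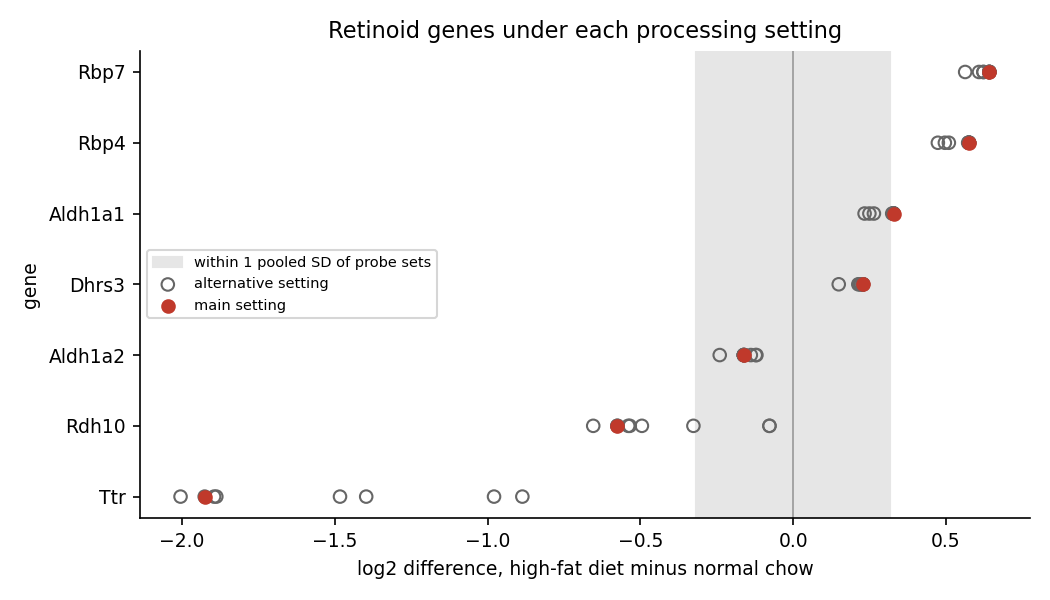
Log2 difference, high-fat diet minus normal chow, of the 7 measured members in the main setting (red) and in each alternative setting (open circles), with the pooled SD of probe sets, 0.32, shaded on either side of 0. Rbp7 and Rbp4 lie right of the shaded band in every setting, Dhrs3 and Aldh1a2 lie inside it, and Rdh10 and Ttr spread most. Aldh1a1 lies just past the band or inside it, by setting.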

How the data were processed

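Total RNA (10 µg) was extracted with Trizol and biotin-labelled for Affymetrix arrays, per the labels' protocols. The deposited values are linear intensities, with no detection calls. How the authors summarised and scaled them, and any genome build, is not given in the sources used here. Trimmed means (2% off each end) were 99.6 on both arrays and the medians of log2 intensity differed by -0.03, so the deposited intensities were used without centring. Scaling of this kind would remove a difference in total RNA per cell.

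Gene symbols came from the platform annotation of 2016. 34945 had 1 symbol, 932 several and 9160 none here, and 34741 matched RefSeq genes by gene ID. A gene was represented by its measured probe set of highest mean log2 intensity over both arrays. A bound that the unequal floors turned against its own direction was set to 0 (61 genes). Calls were by size alone, at 1.5-fold and 2-fold, with no test. The number of arrays limits the precision.

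The members and lists were chosen with earlier results of these data known. The text names all members, other listed genes at 1.5-fold or more (at most 6 a list), receptors and Cyp26 genes, and the 2 largest differences of the adipocyte, endothelial, mesothelial, fibroblast, macrophage, liver and epididymis lists. Other genes named (Adipoq, Stra6l, Bco1, Adh1, Lrat, Lipe, and Alb, Apoh, Fgb, Fgg, Ambp, Cps1 and Tat of the liver list, and Pdgfra and Dcn) were picked after their values were seen. Ces5a of the epididymis list was picked in the same way. Likeness of pattern to other genes is undefined with 2 arrays. The computations were tested on simulated data, with differences planted in brighter genes alone. Bounds and values near the floor were not tested in this way. Python 3.11.15, pandas 2.3.3, numpy 2.4.6 and statsmodels 0.14.6 (lowess) were used. Alternatives changed the floor, the scale, the probe set rule and the probe sets admitted.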

Additional observations from a re-analysis of the deposited data

How the results depend on the processing

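The 9 alternatives were floors at the 20th and 60th percentiles, log2(intensity + 16) with no floor, quantile normalization, lowess centring, centring on reference genes, the mean of a gene's measured probe sets, its probe set of smallest difference, and plain probe sets only. They gave 61 values for the 7 measured members, and all 61 had the sign of the main value. For members with 1 probe set above the floor on both arrays, changes of floor or probe set rule could not alter the sign. Nor could they for Ttr and Rdh10, whose probe sets were all dimmer on the high-fat diet. That part of the 61 was fixed in advance, and only the changes of scale could alter a sign. With plain probe sets only, Ttr and Dhrs3 had no value. Values that moved by more than the pooled SD were those of Ttr, at -0.89 (floor at the 60th percentile), -1.48 (no floor), -1.40 (mean of probe sets) and -0.98 (smallest difference), and of Rdh10, at -0.078 both with the smallest difference and with plain probe sets. The median of the members stayed between 0.15 and 0.33. The count of genes 2-fold or more higher was 608 and 90 with the floors at the 20th and 60th percentiles, as against 164, and that of genes lower was 727 and 66, as against 190. A lower floor admits weaker probe sets by construction. Of 129 other listed genes that were measured, 39 changed sign in at least 1 alternative. Of these, 33 lay within the pooled SD in the main setting, and 2 lay past it but under 1.5-fold, Cyp1b1 and Gpm6a. The other 4 were 1.5-fold or more different: Apoh went to 0.15 and Pdgfra to 0.19 with the smallest difference, Lrp2 to -0.028 with the mean of probe sets, and Rarres2 to -0.12 with the smallest difference and with plain probe sets. Signal under the floor limits Ttr on the high-fat diet, and Stra6 and Crabp2 on both arrays. No paired analysis was possible because each diet had 1 array.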
